A study of Mus musculus with 8 samples.

Results

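Transcripts of glucose uptake, glycolysis and glycogen metabolism were followed in the white adipose tissue of mice with and without Sel1l in their adipocytes. The genes were chosen by name. The list held 39 genes for glucose transporters, the enzymes from hexokinase to lactate dehydrogenase, the pyruvate dehydrogenase complex and its kinases, and the enzymes that build and break down glycogen. Of these, 35 were measured by a probe set of their own, among 18820 genes in all. Gpi1, Pfkfb1 and Eno1 were not named in the annotation of the array, and Pdha1 was named only in probe sets that carry a further gene, so these 4 are not analysed here.

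RNA came from 8 male mice, 1 array for each, with 4 mice in each group. The control mice were wildtype (WT) C57BL/6. The other mice, called Sel1l-/- in the labels, came from a cross of floxed Sel1l mice with mice that express Cre from the promoter of adiponectin, a gene of adipocytes. All 8 were kept during 5 weeks on D12492, a high fat diet from Research Diets, and the strain is labelled as a mix of C57BL/6N and C57BL/6J. The deletion was directed at adipocytes, while the RNA is that of whole tissue, which also holds other cells. The sources used here give no age and no fat depot, and do not say whether the WT mice carried a floxed allele or Cre. The product of Sel1l works with the ubiquitin ligase Hrd1 in clearing misfolded proteins out of the endoplasmic reticulum (ER).

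Fat cells take up glucose through GLUT1 (Slc2a1), which works at all times, and through GLUT4 (Slc2a4), which insulin brings to the cell surface. Glycolysis then splits the sugar into pyruvate, which becomes lactate or enters mitochondria through pyruvate dehydrogenase, and an intermediate of the pathway supplies the glycerol backbone of triglyceride. Adipocytes also keep a small store of glycogen, which glycogen synthase makes and glycogen phosphorylase breaks down.

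Promoters are shown for 3 genes that the results below turn on: Ldhb and Pfkl, the members past the threshold, and Pgk1, a known target of hypoxia-inducible factors (HIF) whose 3 probe sets were compared. Each line gives the 250 bases before the RefSeq start site on GRCm38.p6, 5′ to 3′ on the strand of the gene, and capitals mark the core that HIF proteins recognise, ACGTG or GCGTG on either strand. The Ldhb window is chr6:142507958-142508207 on the minus strand, that of Pfkl is chr10:78009808-78010057 on the minus strand, and that of Pgk1 is chrX:106186850-106187099 on the plus strand.
Ldhb: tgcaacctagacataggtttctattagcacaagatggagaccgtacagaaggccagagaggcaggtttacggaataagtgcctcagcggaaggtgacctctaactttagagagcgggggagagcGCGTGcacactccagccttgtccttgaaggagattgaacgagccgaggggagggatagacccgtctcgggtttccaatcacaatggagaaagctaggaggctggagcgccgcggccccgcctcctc
Pfkl: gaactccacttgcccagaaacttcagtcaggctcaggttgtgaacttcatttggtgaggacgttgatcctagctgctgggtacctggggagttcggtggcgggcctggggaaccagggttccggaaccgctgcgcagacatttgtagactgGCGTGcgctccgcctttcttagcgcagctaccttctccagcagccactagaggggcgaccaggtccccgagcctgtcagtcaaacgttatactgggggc
Pgk1: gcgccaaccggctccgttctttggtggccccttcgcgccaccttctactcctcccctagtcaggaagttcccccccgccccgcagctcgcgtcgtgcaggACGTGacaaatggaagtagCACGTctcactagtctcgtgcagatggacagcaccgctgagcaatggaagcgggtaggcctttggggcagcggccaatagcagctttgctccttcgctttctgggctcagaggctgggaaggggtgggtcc

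The Ldhb window holds 1 match to the HIF core, at -126 from the start site, the Pfkl window 1, at -99, and the Pgk1 window 2, at -150 and -131. In windows of 300 bases that reach 50 bases past the start, the core was present in 35 of 46 windows of 31 measured members (76.1%) and in 43.8% of all 32851 windows of the table. The members' windows were also richer in G and C, with a median of 61.0% against 52.7%, and both forms of the core hold the pair CG. The E-box CACGTG, which overlaps the core, was present in 13.0% of the members' windows and 7.15% of all. The element through which ER stress acts on chaperone genes (the ER stress response element) was matched in 0 of the 46 windows and in 0.119% of all. A match is only a run of letters, and Slc2a3, Slc2a4, Pdp1 and Gys2 had no window in the table.

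Sel1l was read as a check of the labels. It measured 10.48, 10.57, 10.58 and 10.65 (log2) on the WT arrays and 9.56, 9.78, 9.72 and 10.07 on the Sel1l-/- arrays. The groups did not overlap (log2 difference -0.79, standard error 0.10, limma adjusted p = 0.0109). Neither the deleted exons nor the places of the probes are known from the labels. The median of an array lay between 6.05 and 6.08 for WT and between 6.10 and 6.14 for Sel1l-/- mice, and array-to-array correlations were 0.982 to 0.994. The difference between groups was tested for all 18820 genes with limma, and p-values were adjusted over all of them by the Benjamini-Hochberg method, with a threshold of 0.05. The p-values set the difference between the groups against the spread between mice within them. Nothing in the labels says how the mice were housed or the arrays run. A factor shared by a whole group would be part of the difference.

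Most members of the pathway differed little between the groups. Of the 35 measured members, 1 rose (Pfkl) and 1 fell (Ldhb), which is 5.71% of them. Of all genes 1.72% passed the threshold, 1.04% higher and 0.685% lower. The arrays of the 2 groups did not overlap for 8 members, 3 higher and 5 lower in Sel1l-/- mice (22.9%), against 10.3% of all genes, 5.22% higher and 5.07% lower. An unadjusted p under 0.05 was found for 8 members (22.9%) and for 15.0% of all genes. The median log2 difference of the members was -0.05, and that of all genes was -0.0037. Of the members 22 had negative and 13 positive differences, so 37.1% were positive, against 48.8% of all genes. The mean level over the members was 9.36 to 9.49 in WT and 9.20 to 9.35 in Sel1l-/- mice, which only just missed each other. The nearest arrays were WT 4 (9.364) and Sel1l-/- 1 (9.349), where Gys2 measured 10.23 and 7.97. The gap between the groups in this mean rests on Gys2. In 19 members the difference was under 0.15 in size, and in 11 it was over 0.3, of which 10 were lower and 1 higher. The 95% interval lay within a 2-fold change either way for 33 members, all except Slc2a4 and Gys2. A log2 difference of 1 is a 2-fold change. Each mouse has a code with a letter and a number. Letter E was held only by WT mice (WT 1, 2 and 3) and letter G only by Sel1l-/- mice (Sel1l-/- 3 and 4). In those mice the letter cannot be told apart from the genotype, and only letter F was held by both groups. With the replicate number as a block, 1 member was higher and 3 were lower (Ldhb, Hk2 and Pygl), while 358 of all genes were higher and 367 lower, against 195 and 129 without it. With the letter or the number of the code as a block, which leaves fewer comparisons of WT with Sel1l-/- mice, 0 members passed, nor did Sel1l itself (adjusted p = 0.151 with the letter and 0.0813 with the number).

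**Figure D1:**
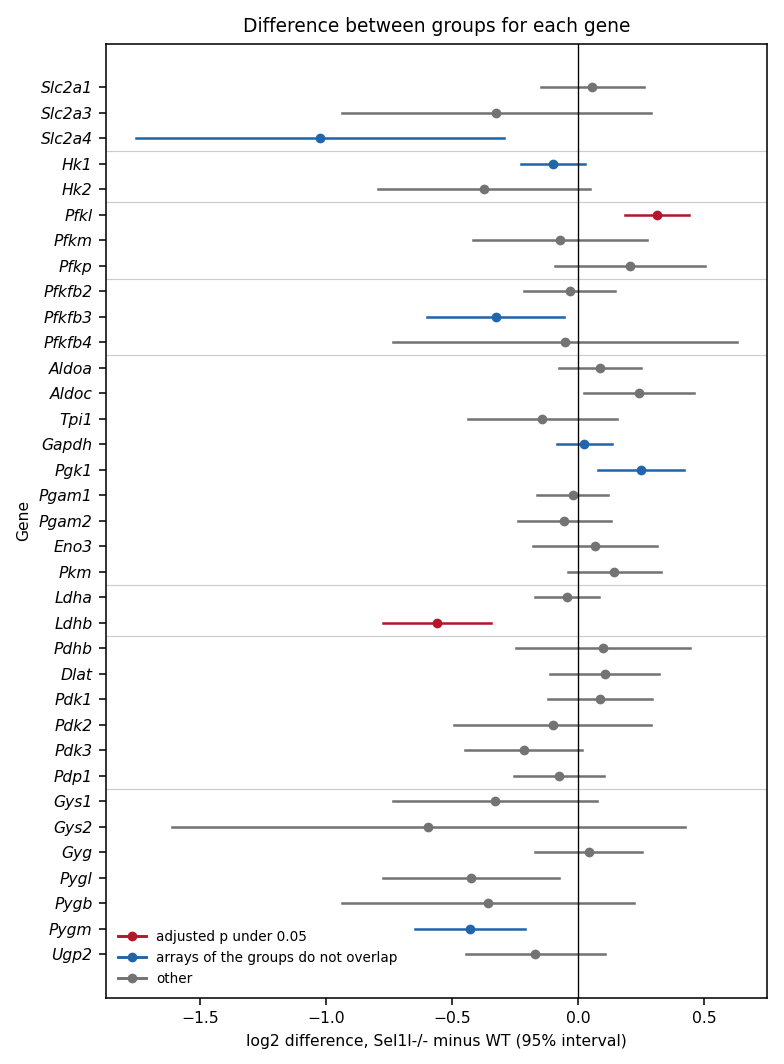
Difference between groups for the 35 measured genes. The x axis is the log2 difference, Sel1l-/- minus WT (n = 4 each), points are estimates and bars 95% intervals from limma; red marks adjusted p under 0.05, blue marks genes whose arrays do not overlap between groups, and grey the rest. Ldhb (-0.56) and Pfkl (0.31) are the red points, while Slc2a4 has the lowest estimate (-1.02) and a wide interval.

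The largest difference was in Slc2a4, the insulin-responsive transporter. It measured 10.56, 10.10, 10.46 and 10.16 in WT mice and 9.74, 9.58, 9.65 and 8.21 in Sel1l-/- mice. All 4 Sel1l-/- arrays lay below all 4 WT arrays, and Sel1l-/- 4 stood 1 log2 unit or more below the rest of its group. The means were 10.32 ± 0.22 and 9.30 ± 0.72 (SD, n = 4 each), and the level was 2.03-fold lower (log2 difference -1.02, 95% interval -1.75 to -0.30), but the adjusted p was 0.176. Without Sel1l-/- 4 the difference was smaller, -0.66, and past the threshold (adjusted p = 0.0442). Over the 8 fits that left out 1 array, the adjusted p ran from 0.0442 to 0.347. In whole tissue, fewer cells of a type and less RNA per cell cannot be told apart.

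Slc2a1, the transporter of basal uptake, measured 9.59, 9.53, 9.26 and 9.59 in WT and 9.64, 9.53, 9.42 and 9.59 in Sel1l-/- mice. The groups overlapped throughout (log2 difference 0.06, 95% interval -0.15 to 0.26, adjusted p = 0.830), and without WT 3 the sign turned (-0.02). The interval excludes a drop as large as the estimate for Slc2a4. Slc2a3, a high-affinity transporter of neurons and white blood cells, ranged from 6.53 to 7.79 in WT and from 6.54 to 7.15 in Sel1l-/- mice (log2 difference -0.32, adjusted p = 0.640).

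Hexokinases trap glucose in the cell by adding a phosphate, and Hk2 is the insulin-responsive form. Hk2 measured 9.26, 8.82, 8.86 and 8.53 in WT and 8.88, 8.51, 8.46 and 8.13 in Sel1l-/- mice. The groups overlapped, but within each same-numbered pair the Sel1l-/- mouse was lower. The log2 difference was -0.37 (standard error 0.18, adjusted p = 0.400), and with the replicate number as a block it was past the threshold (adjusted p = 0.0281). Hk1, the widely expressed form, measured 8.84, 8.95, 8.84 and 8.88 in WT and 8.71, 8.83, 8.75 and 8.81 in Sel1l-/- mice. These did not overlap, yet the difference was only -0.10 (95% interval -0.23 to 0.03, adjusted p = 0.463).

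Phosphofructokinase is the main control point of glycolysis, and its liver-type subunit, Pfkl, was the member that rose. Pfkl measured 9.33, 9.40, 9.38 and 9.28 in WT mice and 9.64, 9.74, 9.65 and 9.62 in Sel1l-/- mice. The spread within each group was small, 9.35 ± 0.06 and 9.66 ± 0.05 (SD, n = 4 each), and the gap between the groups was wider than either range. The level was 1.24-fold higher (log2 difference 0.31, 95% interval 0.19 to 0.44, adjusted p = 0.0328). Pfkl no longer passed after each array was centred on its median (0.27, adjusted p = 0.0616). It passed in 1 of the 8 fits with an array left out, the fit without Sel1l-/- 4, and the adjusted p of the others reached 0.114 (without Sel1l-/- 2).

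The other subunits did not pass. Pfkp, the platelet type, had a log2 difference of 0.21 (95% interval -0.09 to 0.50, adjusted p = 0.524), and Pfkm, the muscle type, one of -0.07 (-0.42 to 0.27, adjusted p = 0.874). The interval of Pfkp includes the estimate for Pfkl, that of Pfkm does not, and no difference between subunits was tested. The bifunctional enzymes of the Pfkfb family set the level of the sugar phosphate that activates phosphofructokinase. Pfkfb3, the form with the strongest activating balance, measured 11.99, 11.82, 11.88 and 11.79 in WT and 11.70, 11.47, 11.78 and 11.23 in Sel1l-/- mice. The groups just missed each other, with a 1.25-fold lower level (log2 difference -0.33, standard error 0.12, adjusted p = 0.248). Pfkfb2 and Pfkfb4 had differences of -0.03 and -0.05 (adjusted p = 0.888 and 0.960). Pfkfb4 was highest in the mice numbered 4 of both groups, at 8.27 in WT 4 and 8.05 in Sel1l-/- 4, against 6.93 to 7.35 in all other mice.

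**Figure D2:**
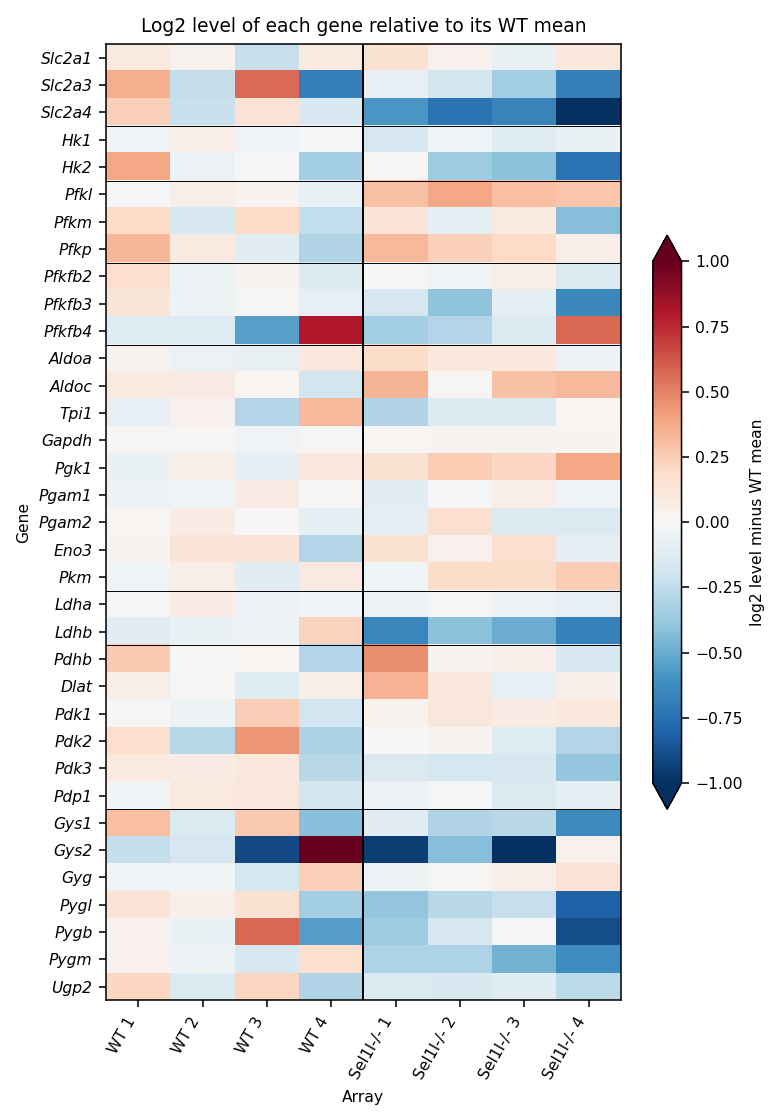
Levels of the 35 genes on each array. Rows are genes in the order of the pathway, columns are the 8 arrays, and colour is the log2 level minus the WT mean of that gene, with colours saturating at -1 and 1. Slc2a4 and Ldhb are lower and Pfkl and Pgk1 higher on every Sel1l-/- array than on any WT array, while Gys2 and Pfkfb4 vary within the groups.

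The enzymes of the lower part of glycolysis were 9 of the 10 listed, and none passed the threshold over all genes. Of the differences 6 were positive and 3 negative, from -0.14 (Tpi1, triose phosphate isomerase) to 0.25 (Pgk1). Pgk1, phosphoglycerate kinase, forms ATP in the pathway. It measured 10.15, 10.27, 10.11 and 10.32 in WT and 10.36, 10.47, 10.42 and 10.60 in Sel1l-/- mice, so the groups did not overlap but lay close (log2 difference 0.25, 95% interval 0.08 to 0.42, adjusted p = 0.160). Of its 3 probe sets, 2 held the same values on every array. The third measured 10.16, 10.24, 10.12 and 10.31 in WT and 10.34, 10.47, 10.42 and 10.59 in Sel1l-/- mice, a difference of 0.25 as well (adjusted p = 0.153 over all single-gene probe sets). The 3 probe sets are therefore not 3 measurements, and whether they also detect near-identical copies of Pgk1 in the genome was not tested.

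Gapdh, the dehydrogenase often used as a reference transcript, measured 13.43, 13.44, 13.39 and 13.44 in WT and 13.44, 13.45, 13.45 and 13.45 in Sel1l-/- mice. It sits at the top of the scale of these arrays, and a compression of differences at that level was not tested. Its groups only just missed each other, with the highest WT array at 13.4374 and the lowest Sel1l-/- array at 13.4386. The log2 difference was 0.03 (95% interval -0.08 to 0.13, adjusted p = 0.857), and with the arrays centred it was -0.02. Gapdh was named by 17 probe sets, whose differences ran from 0.01 to 0.03, and in most of them the groups overlapped. Pkm, which makes pyruvate, measured 10.58, 10.68, 10.50 and 10.71 in WT and 10.58, 10.80, 10.80 and 10.87 in Sel1l-/- mice (log2 difference 0.14, adjusted p = 0.471), with overlap through Sel1l-/- 1. A probe set of Pkm does not separate its splice forms. Aldoa (0.09), Pgam1 (-0.02), Pgam2 (-0.05) and Eno3 (0.07) were near 0, while Aldoc, the brain-type aldolase, had 0.24 (adjusted p = 0.285).

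Lactate dehydrogenase is built from A and B subunits. Ldhb fell. Its brighter probe set measured 8.34, 8.38, 8.39 and 8.66 in WT and 7.79, 8.03, 7.94 and 7.77 in Sel1l-/- mice, and no Sel1l-/- array reached the lowest WT array. The means were 8.44 ± 0.15 and 7.88 ± 0.13 (SD, n = 4 each), so Ldhb was 1.47-fold lower (log2 difference -0.56, 95% interval -0.77 to -0.34, adjusted p = 0.0287). The dimmer probe set measured 8.13, 8.12, 8.33 and 8.38 in WT and 7.51, 7.56, 7.37 and 7.12 in Sel1l-/- mice. There the gap was wider, 1.80-fold (log2 difference -0.85, 95% interval -1.10 to -0.60, adjusted p = 0.0112 over 21218 single-gene probe sets, of which 1.57% passed).

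Leaving out 1 array moved the 2 probe sets of Ldhb differently. The brighter kept its call in 1 of 8 fits, that without WT 4 (adjusted p up to 0.0811 without Sel1l-/- 3), and the dimmer in 8 of 8 (up to 0.0479). The differences themselves stayed between -0.61 and -0.48 for the brighter and between -0.91 and -0.76 for the dimmer. Whether the 2 probe sets detect the same transcript, or also near-identical copies of Ldhb in the genome, was not tested. Within the mice whose code in the labels has the letter F, 1 WT and 2 Sel1l-/-, the brighter probe set differed by -0.75. Within the code numbers 5, 7 and 9 it differed by -0.56, -0.60 and -0.36. For Pfkl the same values were 0.41, then 0.34, 0.23 and 0.36, and for Slc2a4 -0.50, then -0.71, -1.12 and -0.88. The mice of letter F also belong to the number groups, so these 4 values are not independent.

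Ldha, the subunit that dominates in glycolytic tissue, measured 12.73, 12.80, 12.66 and 12.70 in WT and 12.67, 12.74, 12.67 and 12.64 in Sel1l-/- mice. The groups overlapped almost fully (log2 difference -0.04, 95% interval -0.17 to 0.08, adjusted p = 0.772). Its interval does not reach that of either probe set of Ldhb, although Ldha lies near the top of the scale.

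**Figure D3:**
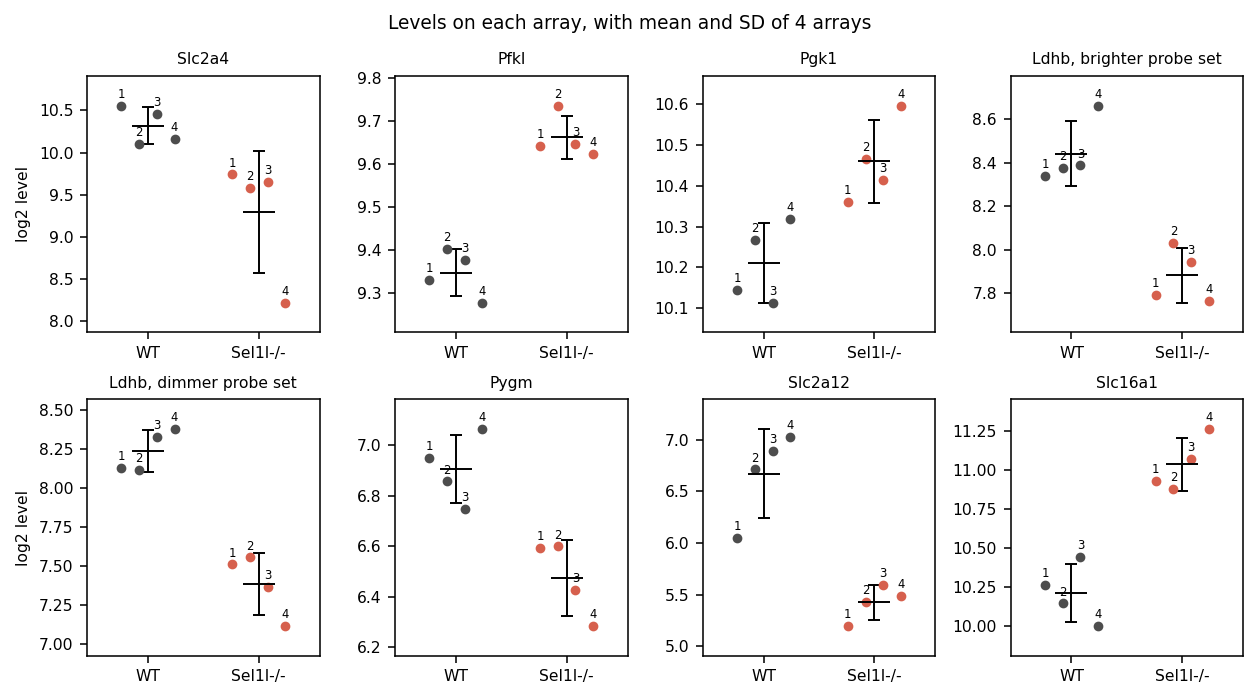
Log2 levels of 7 genes on each array, with 2 probe sets for Ldhb. Points are arrays with their replicate number, horizontal marks are group means and bars the SD of 4 arrays; each panel has its own y range, which does not start at 0. In every panel all Sel1l-/- points lie on 1 side of the WT points, and for Slc2a4 the point at 8.21 is Sel1l-/- 4.

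Pyruvate dehydrogenase commits pyruvate to mitochondria, its kinases (Pdk) switch it off and its phosphatase (Pdp) switches it on. None of the 6 measured members passed. Pdhb and Dlat, subunits of the complex, had log2 differences of 0.10 and 0.11 (adjusted p = 0.820 and 0.670). Pdk1 and Pdk2 had 0.09 and -0.10, and Pdp1 had -0.08. Pdk3 had the largest, -0.22 (95% interval -0.45 to 0.02, adjusted p = 0.372), and in both groups the mouse numbered 4 lay lowest, at 8.89 in WT and 8.79 in Sel1l-/- mice.

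Of the 7 glycogen genes measured, 6 had negative log2 differences, with a median of -0.36, and 0 passed the threshold, while an unadjusted p under 0.05 was found for Pygl and Pygm. Pygm, the muscle form of glycogen phosphorylase, measured 6.95, 6.86, 6.75 and 7.06 in WT and 6.59, 6.60, 6.43 and 6.28 in Sel1l-/- mice. The groups did not overlap, with a 1.35-fold lower level (log2 difference -0.43, 95% interval -0.65 to -0.21, adjusted p = 0.0727), and the difference was past the threshold with array weights (adjusted p = 0.0473). The mean of 13 markers of skeletal muscle was 4.90 to 5.07 in WT and 4.87 to 4.97 in Sel1l-/- mice, and 0 of 13 passed. Of the 13 markers 7 had negative differences, with a median of -0.02 and a range of -0.37 to 0.05. Among them Myh4 had group means of 3.91 and 3.96 and Ckm of 5.42 and 5.46, while Acta1 had 7.46 and 7.14 (log2 difference -0.32, adjusted p = 0.390). The part of muscle RNA in the level of Pygm was not tested.

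Pygl, the liver form of the phosphorylase, measured 9.74, 9.66, 9.76 and 9.27 in WT and 9.21, 9.33, 9.38 and 8.80 in Sel1l-/- mice. The groups overlapped only through WT 4, which lay below Sel1l-/- 2 and 3 (log2 difference -0.43, standard error 0.15, adjusted p = 0.239, and 0.0275 with the replicate block). Pygb, the brain form, ranged from 10.29 to 11.42 in WT and from 9.96 to 10.83 in Sel1l-/- mice (-0.36, adjusted p = 0.576).

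Gys1, the main glycogen synthase outside liver, measured 10.59, 10.14, 10.55 and 9.87 in WT and 10.18, 9.98, 10.01 and 9.65 in Sel1l-/- mice. These overlapped (log2 difference -0.33, 95% interval -0.73 to 0.07, adjusted p = 0.442). Gys2, the form best known from liver and also made by adipocytes, measured 8.67, 8.74, 8.01 and 10.23 in WT and 7.97, 8.49, 7.87 and 8.96 in Sel1l-/- mice. Its spread among WT mice was the widest of the list, 8.91 ± 0.94 and 8.32 ± 0.50 (SD, n = 4 each), and the mice numbered 4 were highest in both groups, so the difference of -0.59 could not be told from 0 (95% interval -1.61 to 0.42, adjusted p = 0.601). Gyg, the protein primer of glycogen, and Ugp2, which makes the activated glucose that synthase uses, had differences of 0.04 and -0.17 (adjusted p = 0.880 and 0.577).

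Genes of the same pathways outside the 39 were taken from 8 lists, with 77 of 89 genes measured. Of these 77, 1 rose and 1 fell, while 1.04% of all genes were higher and 0.685% lower. Their median log2 difference was -0.0088. Slc16a1, the carrier of lactate and pyruvate known as MCT1, measured 10.26, 10.14, 10.44 and 9.999 in WT and 10.93, 10.88, 11.07 and 11.26 in Sel1l-/- mice. The groups were well apart, with a 1.77-fold higher level (log2 difference 0.82, standard error 0.12, adjusted p = 0.0142), and the call was lost in 3 of 8 fits that left out 1 array, those without WT 1, WT 2 or Sel1l-/- 3 (up to 0.0554). Its chaperone Bsg had a difference of -0.07 (adjusted p = 0.578).

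Slc2a12, a further transporter of the GLUT family found in fat and muscle, measured 6.05, 6.71, 6.89 and 7.03 in WT and 5.20, 5.43, 5.595 and 5.49 in Sel1l-/- mice. WT 1 lay lowest in its group and still above every Sel1l-/- array, with a 2.37-fold lower level (log2 difference -1.24, standard error 0.20, adjusted p = 0.0235). The call was lost without WT 2, WT 3 or any of Sel1l-/- 1 to 3 (up to 0.0807). In the 6 other lists none passed, and the gene with the smallest p in each is given with its log2 difference. These were Bpgm among other glycolytic isoforms (-0.38, adjusted p = 0.148), Rpia of the pentose phosphate pathway (-0.17, 0.364) and G6pc3 of gluconeogenesis (0.32, 0.0785). Stbd1, which ties glycogen to membranes (0.59, 0.100), Hif1a among regulators (0.28, 0.196) and Gnpnat1 of the hexosamine pathway (0.52, 0.135) completed them. With the replicate block, Stbd1 and Gnpnat1 were past the threshold (adjusted p = 0.0268 and 0.0400), and with array weights G6pc3 and Stbd1 were (0.0305 and 0.0380). Over all 77 genes the block gave 4 higher and 2 lower, and the weights 3 and 2. Calls over all 18820 genes rose as well, from 195 higher and 129 lower to 358 and 367 with the block and 347 and 219 with the weights.

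Marker genes of cell types were read on the same arrays. The mean of 8 endothelial markers was 10.06 to 10.15 in WT and 9.56 to 9.86 in Sel1l-/- mice, without overlap. All 8 had negative differences, and 1 of them, Pecam1, passed (-0.39, adjusted p = 0.0290), a call lost in 8 of 8 fits with an array left out (up to 0.102 without Sel1l-/- 2). Of 7 adipocyte markers 6 had negative differences and 0 passed, with a median of -0.11 and a range of -0.56 to 0.02. Their mean was 12.65 to 12.76 in WT and 12.41 to 12.62 in Sel1l-/- mice. Adipoq, the adiponectin gene, whose promoter drove Cre in the cross, had -0.56 (adjusted p = 0.0753, 0.0204 with the replicate block and 0.0463 with array weights). In the adipocyte mean the nearest arrays were WT 4 (12.647) and Sel1l-/- 1 (12.624), where Adipoq measured 12.53 and 12.22. The gap between the groups in that mean rests on Adipoq.

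All 8 macrophage markers had positive differences and 0 passed, and their mean was 9.86 to 10.76 in WT and 10.18 to 11.22 in Sel1l-/- mice, highest in Sel1l-/- 4. That array was also the lowest in adipocyte and endothelial markers. Of the 35 members, 21 had their lowest Sel1l-/- value on it and 7 their highest. Within WT, array 4 had the highest macrophage mean, the lowest value of 19 members and the highest value of 11. The same shares over all genes were not counted. Of 6 lymphocyte markers 5 had negative differences, with a median of -0.40, and 1 fell, Cd2 (-0.65, adjusted p = 0.0456). Cd2 kept its call in 1 of 8 fits with an array left out (adjusted p up to 0.119 without WT 2). It also lost the call with array weights (adjusted p = 0.0572). Cd3e had -0.11. In the remaining lists none passed the threshold, and the first gene of each is given with its log2 difference beside the counts of the list. Adgre1 of the macrophage list had 0.42. Pdgfra of the fibroblast and progenitor list had 0.23, but 5 of the 7 genes there were negative, with a median of -0.08 and a range of -0.32 to 0.23. Ucp1 of the thermogenic list had 0.44, and 5 of the 6 genes were positive, with a median of 0.44. The highest there was Cox8b (0.85, adjusted p = 0.114), whose groups overlapped. The 1 gene of that list without overlap was Elovl3 (0.74, adjusted p = 0.0980). Both were named after their values were seen. Alas2 had -0.72 (adjusted p = 0.206, and 0.0373 without WT 2) and both red blood cell genes were negative, while Alb had -0.69 and 3 of 5 liver genes were negative. The part of these markers in the levels of Slc2a4, Ldhb, Pfkl and the glycogen genes was not tested.

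**Figure D4:**
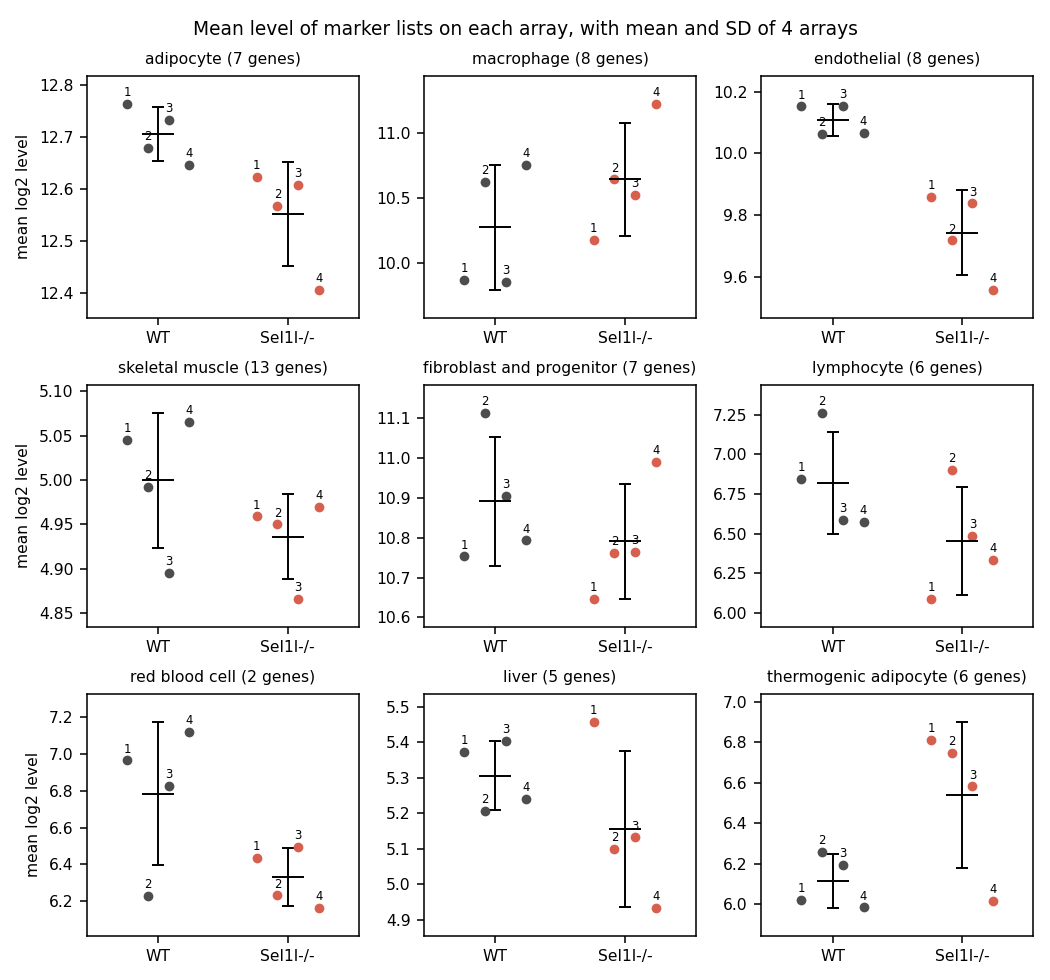
Mean log2 level of 9 marker lists on each array. Points are arrays with their replicate number, horizontal marks are group means and bars the SD of 4 arrays; each panel has its own y range. Endothelial means do not overlap between groups, adipocyte means miss each other by a gap that rests on Adipoq, and macrophage means overlap. Sel1l-/- 4 is the highest macrophage and the lowest adipocyte point.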

How the data were processed

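Per the labels' protocols, total RNA of white adipose tissue passed an integrity check and was made into whole-transcript cDNA and hybridised to 1-colour arrays. From their range of 1.72 to 13.9, the values that the authors deposited are log2 levels. RMA is the tool given in the submitters' processing notes; it equalizes the distributions of arrays, so a shift shared by most transcripts would be hidden. Of 35556 probe sets, 21218 carried 1 gene symbol in the platform annotation, 1881 several and 12457 none. Where a gene had several single-gene probe sets, the brightest on average stood for it, and dim genes were kept. The comparison used lmFit and eBayes of limma 3.58.1 under R 4.3.3, two-sided, and was tested on simulated data. Figures were drawn with Python 3.11.15 and matplotlib 3.10.9. With 4 arrays in a group, that number sets the precision.

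The members, lists and rules were chosen with earlier results of these data known. Every member was named, and those past the threshold, without overlap, among the 6 largest differences or picked for their role (Slc2a4, Slc2a1, Hk2, Ldha, Pkm, Gys1) were given by array. In the other pathway lists, genes past the threshold, or else that with the smallest p, were named. In the marker lists, genes past the threshold and the first gene of each list were named. Bsg, Myh4, Ckm, Cox8b and Elovl3 were added outside these rules, after their values were seen.

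Titles give the replicates of each group the numbers 1 to 4. The deviations of mice that share a number from their group means had correlations over all genes of 0.518, 0.107, 0.363 and 0.524. Mice of different numbers reached 0.328, above the 0.107 of the mice numbered 2. The replicate block thus rests on the numbers in the titles, while the correlations that bear on them come from these same data. The main fit did not use the block. No label says what such mice share, and same-numbered mice share neither the letter nor the number of the mouse code. Alternatives were centring, a filter on dim genes, the mean of all probe sets, an intensity trend, array weights, the replicate number and the letter or number of the mouse code as blocks, and leaving out each array. The labels do not explain the mouse codes.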

Additional observations from a re-analysis of the deposited data

Results flagged for a closer look

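In 6 of the 70 groups of 4 arrays checked (35 genes in 2 genotypes), 1 array stood apart by Dixon's ratio, its gap to the nearest array over the whole range, where 0.83 is the 95% limit and chance gives about 1 group in 20. Slc2a4 on Sel1l-/- 4 was low at 8.21, with the nearest array at 9.58 (ratio 0.894), and the difference between groups without that array was -0.66. Pdk3 was low on the arrays numbered 4 of both groups, at 8.89 in WT 4 with the nearest at 9.24 (0.907) and at 8.79 in Sel1l-/- 4 with the nearest at 8.998 (0.894). Ldhb on WT 4 was high at 8.66, with the nearest at 8.39 (0.846). Aldoc on Sel1l-/- 2 was low at 5.72, with the nearest at 6.00 (0.865). Gapdh on WT 3 was low at 13.39, with the nearest at 13.43 (0.918), a gap that is small in size.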

How the results depend on the processing

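With a filter on dim genes, the mean of all probe sets or an intensity trend, every count stayed within 1.5 times the value given and no named gene changed its call. Over all genes, 195 higher and 129 lower became 119 and 154 with the arrays centred, 347 and 219 with array weights, 358 and 367 with the replicate block, 7 and 13 with mouse-code letters as blocks and 8 and 3 with mouse-code numbers, and 66 to 244 and 31 to 140 when 1 array was left out. Among the 35 members, 1 higher and 1 lower became 0 and 1 with centring, 1 and 2 with array weights, 1 and 3 with the replicate block (Ldhb, Hk2 and Pygl lower), 0 and 0 with either part of the mouse code, and 0 to 1 each way when 1 array was left out. Among the 77 other pathway genes, 1 and 1 became 1 and 2 with centring, 3 and 2 with array weights, 4 and 2 with the replicate block, 0 and 1 with the letter, 0 and 0 with the number, and 0 to 1 each way when 1 array was left out. The 1 lower gene with the letter was not Slc2a12, whose call was lost with either part of the mouse code. The replicate block changed no other call of a member.

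The letter block rests on WT 4 against Sel1l-/- 1 and 2. With it the median over the members turned from -0.05 to 0.12 (-0.08 to -0.03 when 1 array was left out), and these log2 differences changed sign: Slc2a3 0.56, Hk2 0.16, Pfkm 0.27, Pfkfb2 0.12, Pgam2 0.13, Pkm -0.0197, Ldha 0.0062, Pdk2 0.33, Pdk3 0.12, Pdp1 0.16, Gys1 0.21, Gyg -0.26, Pygl 0.0027, Pygb 0.29, Ugp2 0.15, Rpia 0.0249, Adgre1 -0.42 and Alb 0.12. The cause was not tested. Gapdh (-0.0168) and Gyg (-3e-04) changed sign with centring and Pgam1 (0.0101) with array weights, all near 0. In alternatives chosen after seeing the data, the dimmer probe set of Ldhb had -0.84 with the letter and -0.82 with the number, and the brighter -0.75 and -0.52, none past the threshold. Leaving out 1 array changed the sign of 9 members with differences near 0 or wide spreads. The values ran from -0.021 to 0.099 for Slc2a1, -0.1534 to 0.0461 for Pfkm, -0.0802 to 0.0211 for Pfkfb2, -0.26 to 0.21 for Pfkfb4, -0.0516 to 0.0104 for Pgam1, -0.0306 to 0.1211 for Eno3, -0.023 to 0.1859 for Pdhb, -0.2059 to 0.0481 for Pdk2 and -0.0169 to 0.1211 for Gyg, and from -0.2268 to 0.1192 for the marker Cd3e. Those of the brighter Ldhb probe set ran from -0.6082 to -0.4848.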
